A study of Homo sapiens with 32 samples.

Results

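The genes described here build and run the nuclear pore: nucleoporins, importins, exportins and the Ran cycle that gives transport its direction. They were chosen by symbol. Every gene in the authors' deposited table of all genes whose symbol begins with NUP, IPO, KPNA, KPNB, TNPO or XPO in the usual numbered form entered, together with RAN, RCC1, RANBP1 and RANBP2. The rule found 49 genes among 58317, of which 22 are nucleoporins (RANBP2 included), 24 are transport receptors and 3 belong to the Ran cycle. All 49 had values in all 7 comparisons of the study, and all 49 are protein-coding genes in GENCODE release 29.

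The cells were TET21 (SH-EP/TET21/N), a line made from human SH-EP neuroblastoma cells by adding a MYCN transgene that doxycycline represses. There were 32 RNA-seq libraries, 4 from each of 8 groups. EV cells carried an empty vector, WT cells expressed full-length MYC, and cells of the 6 other groups expressed a MYC with a deletion, named d0x, d1, d2, d3a, d3b or d4. Which residues are missing is not stated in the labels; the names are read here as the conserved MYC boxes 0, I, II, IIIa, IIIb and IV. The growth protocol, carried by the samples of every group although it names WT-MYC cells alone, gives 1 µg/mL of doxycycline over the 7 days that preceded harvest. As far as it covers them, EV and mutant cells thus share a background in which the MYCN transgene is repressed. Replicates carry the numbers 4 to 7, and nothing in the labels says whether they were separate cultures.

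The values come from the authors' deposited tables, which compare WT with EV and then every mutant with WT. For each gene and comparison a table gives a log2 fold and a PPDE, the posterior probability of differential expression. A gene was called, and is said to have risen or fallen, where the PPDE was at least 0.95, which the file headers equate with a false discovery rate below 0.05. Values per library were not used here, so folds are printed without an error, and no spread between replicates stands behind them other than what the PPDE carries. All 7 comparisons contain the WT libraries, so a chance deviation of WT enters every fold. In bulk RNA, fewer cells that express a gene and less RNA per cell cannot be told apart.

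Proteins and RNA cross the nuclear envelope through pores made of many kinds of nucleoporin arranged in rings, a central channel, cytoplasmic filaments and a nuclear basket. Importins bind cargo in the cytoplasm and release it in the nucleus when they meet Ran bound to GTP, while exportins need Ran-GTP to bind cargo and lose it when GTP is hydrolysed outside. RCC1, which sits on chromatin, loads Ran with GTP, and RANBP1 and RANBP2 assist the hydrolysis in the cytoplasm, so the gradient of Ran-GTP sets the direction. MYC is a transcription factor that binds the E-box CACGTG with its partner MAX and is best known for raising genes of growth, among them genes of ribosome assembly and export.

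In the authors' deposited list of genes with a MYC binding site, drawn from 1 binding experiment in cells with WT MYC, 41 of the 49 genes (83.7%) were present. Of all 38218 genes tested in WT against EV 24.0% were on that list, and of the 16456 tested protein-coding genes 50.1%. The 8 genes not listed were the importins IPO8, IPO9, IPO13 and KPNA7, the nucleoporins NUP160, NUP210 and NUP210L, and the Ran cofactor RANBP1. How sites were assigned to genes is not given in the sources used here.

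Promoter windows from RefSeq, on GRCh38.p14, were searched for 2 motifs: CACGTG, which is its own reverse complement, and CACGCG with its reverse complement CGCGTG, a form of the E-box that MYC is also known to bind. Both strands were read. A CACGTG match cannot overlap one of the other motif, whereas CACGCG can overlap its own reverse complement. A window runs from 250 bases before a start to 50 bases after it. RefSeq windows were found for 42 of the 49 genes, 55 windows in all, with more than 1 window for 12 genes; the genes with none were KPNA4, KPNA5, KPNA7, KPNB1, NUP43, RANBP1 and XPO7. CACGTG stood in 9 of the 55 windows (16.4%), one each for 9 genes, against 7.26% of all 35116 windows, 8.56% of windows of tested protein-coding genes and 10.2% of windows of tested genes with a MYC binding site. CACGCG or CGCGTG stood in 12 of the 55 windows (21.8%). The shares were 11.4% of all windows, 15.1% of those of tested protein-coding genes and 19.2% of those of tested genes with a site. A match is a description of letters in a window and says nothing about occupancy.

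The 4 stretches below are the 250 bases before the start, 5′ to 3′ on the gene's strand, with motif matches in capitals. RAN, at chr12:130871816-130872065 on the plus strand, is shown because it is the one gene called in WT against EV that is on the binding list and holds CACGTG. Its E-box begins 102 bases before the start, and CACGCG matches begin at 247, 197 and 113 bases before it. The other 3 were chosen after their content was seen. RCC1, at chr1:28517976-28518225 on the plus strand, is the upstream regulator of Ran and has CACGTG in its second window. XPO5, at chr6:43576039-43576288 on the minus strand, was called in 3 comparisons and has no canonical E-box. In its stretch CGCGTG begins 26 bases before the start, and a further match beginning 3 bases before it runs past the end of the printed stretch. NUP188, at chr9:128947449-128947698 on the plus strand, is the one gene with 2 CACGTG matches, 77 and 30 bases before its start, and was called in no comparison.
RAN: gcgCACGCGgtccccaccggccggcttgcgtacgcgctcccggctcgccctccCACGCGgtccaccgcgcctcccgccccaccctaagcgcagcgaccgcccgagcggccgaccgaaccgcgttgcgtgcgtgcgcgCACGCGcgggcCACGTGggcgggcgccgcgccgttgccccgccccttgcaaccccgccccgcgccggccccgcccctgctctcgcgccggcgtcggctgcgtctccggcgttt
RCC1 window 2: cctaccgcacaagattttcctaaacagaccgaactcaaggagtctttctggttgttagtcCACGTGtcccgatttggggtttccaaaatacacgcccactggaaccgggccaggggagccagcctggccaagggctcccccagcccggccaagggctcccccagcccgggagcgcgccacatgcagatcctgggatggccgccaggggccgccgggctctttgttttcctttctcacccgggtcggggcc
XPO5: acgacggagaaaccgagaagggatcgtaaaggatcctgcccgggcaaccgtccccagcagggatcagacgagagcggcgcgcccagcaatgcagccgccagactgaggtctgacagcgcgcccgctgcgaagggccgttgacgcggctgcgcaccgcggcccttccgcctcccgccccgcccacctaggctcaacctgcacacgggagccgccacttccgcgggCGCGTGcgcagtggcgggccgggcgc
NUP188: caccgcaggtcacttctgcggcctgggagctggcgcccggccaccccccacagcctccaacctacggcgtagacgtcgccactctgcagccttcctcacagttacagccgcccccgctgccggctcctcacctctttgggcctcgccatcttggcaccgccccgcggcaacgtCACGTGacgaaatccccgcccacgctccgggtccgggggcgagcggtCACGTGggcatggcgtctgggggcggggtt

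The other genes with CACGTG in a window were the importins IPO4, IPO7, KPNA3 and TNPO2, the exportin XPO1 and the basket nucleoporin NUP50. First bases lay between 190 bases before the start, in RCC1, and 24 before it, in TNPO2. All 9 genes with CACGTG were on the authors' binding list, but so were 36 of all 42 genes with a window.

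**Figure D1:**
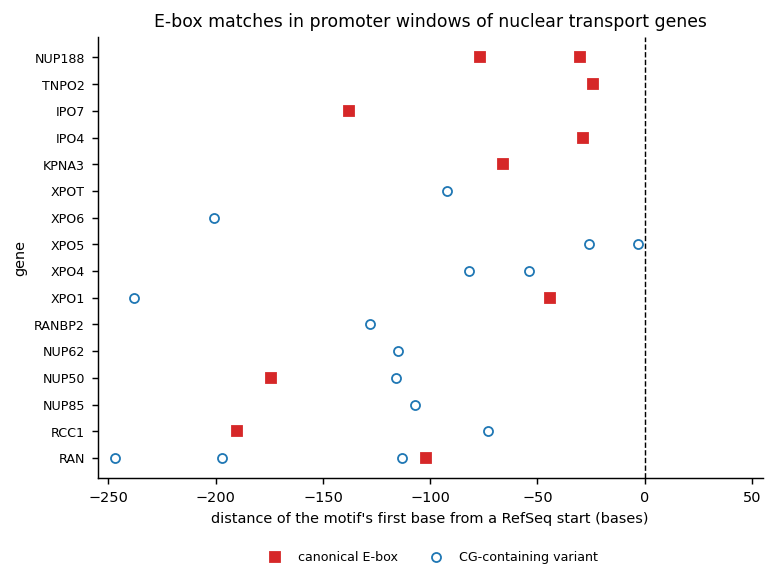
Position of each motif match (x axis, bases from the RefSeq start, shown by the dashed line) for the 16 nuclear transport genes with a match; filled squares are CACGTG and open circles are CACGCG or CGCGTG. NUP188 has 2 CACGTG matches, at 77 and 30 bases before its start, and RAN has 1 CACGTG match and 3 of the other form.

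MYC RNA itself was higher in WT than in EV by 0.98 (log2) in the authors' deposited table, with a PPDE of 0.348, so that it was not called, and MYC in the mutants stood between -0.09 (d3b) and 0.68 (d2) against WT with no call. The tables give no levels, so the cell type can be checked only through which marker genes changed. Of the epithelial markers 3 of 4 (KRT5, KRT14 and CDH1) and of the mesenchymal neuroblastoma markers 2 of 6 (FN1 and SNAI2) had fallen with WT MYC in the authors' deposited table, 1 of 5 measured neuroblastoma markers (HAND2) had risen, and 0 of 4 measured immune markers were called. The dopamine pathway enzyme TH, a neuroblastoma marker, had no value in that comparison, which per the headers is the entry for a gene without reads. The mutants differed from WT in these markers too. In d2 2 of the 6 mesenchymal markers had risen, FN1 by 1.77 and SNAI2 by 1.36 in the authors' deposited table, and the epithelial markers had a median of 1.63 with 3 of 4 above 0 and no call. In d4 the 4 epithelial markers were all above 0, with a median of 2.31, up to KRT5 at 3.68 (PPDE 0.791) in the authors' deposited table. The 6 mesenchymal markers had a median of 0.01 in d4, with 4 above 0, 2 below it and 0 called. FN1 was the highest of them, at 0.93 (PPDE 0.939) in the authors' deposited table. The part of these changes in the results below was not tested.

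Full-length MYC against empty vector asks what MYC expression changes. The genes of nuclear transport were mostly a little higher with MYC: 43 of the 49 had a fold above 0 and 6 below it. Calls were few, with 3 genes risen (XPO5, RAN and RANBP1) and 0 fallen. Of all tested genes in the authors' deposited table, 1.97% had risen and 2.94% had fallen, against 6.12% and 0 of the 49. Among protein-coding genes, the nearer comparison, 3.88% had risen and 5.96% had fallen. The median log2 fold of the 49 was 0.16, beside -0.04 over all tested genes and -0.07 over protein-coding genes, of which 42.8% had a fold above 0. Most differences were small, and 35 of the 49 were under 0.3 in size.

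**Figure D2:**
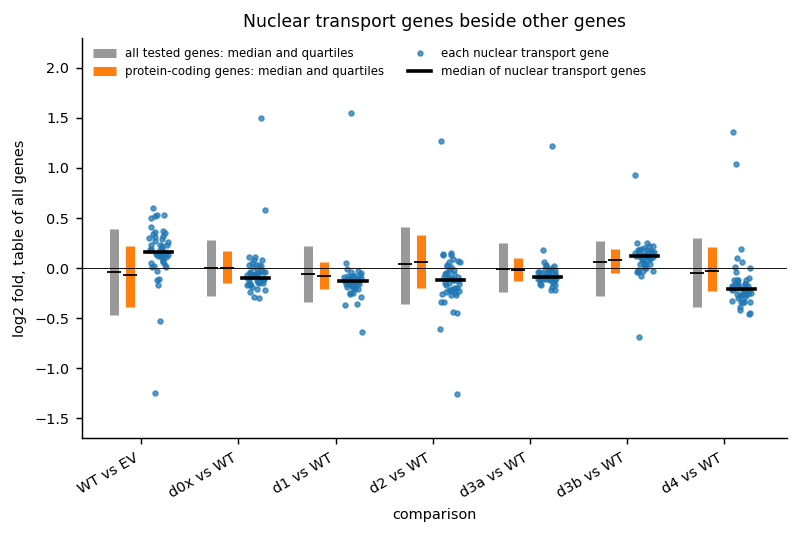
Log2 fold in the table of all genes (y axis) for the 49 nuclear transport genes (points, black line at their median) in each of the 7 comparisons (x axis), beside the median and quartiles of all tested genes (grey) and of protein-coding genes (orange). The median of the 49 lies at 0.16 in WT against EV and at -0.21 in d4 against WT; KPNA7 is the highest point in d0x, d1, d2, d3a and d3b, and NUP210 is the highest in d4.

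All 3 genes of the Ran cycle were higher with MYC, and 2 of them had risen. RAN, the GTPase itself, rose by 0.36 (1.28-fold) with a PPDE of 1.00 in the authors' deposited table. RANBP1, which helps release Ran-GTP from transport receptors so that its GTP can be hydrolysed, rose by 0.32 (1.25-fold) with a PPDE of 0.998 there. RCC1, the exchange factor, had the highest fold of all 49 genes in the authors' deposited table, 0.60, and a PPDE of 0.195, so that the highest fold was not a call. RANBP2, the large cytoplasmic filament protein that binds Ran-GTP, had a fold of 0.07 there.

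Among the 6 exportins all folds were above 0, with a median of 0.19, and 1 had risen. XPO5, which carries microRNA precursors out of the nucleus, rose by 0.53 (1.44-fold) with a PPDE of 1.00 in the authors' deposited table. XPO4, an exportin for the translation factor eIF5A and for SMAD3, had the same fold of 0.53 in the authors' deposited table with a PPDE of 0.0690. Equal folds thus stood on opposite sides of the threshold, which a table without spreads does not resolve further. XPO7, a receptor with a broad cargo range, stood at 0.23 with a PPDE of 0.719 in the authors' deposited table. XPO1, the exportin for leucine-rich export signals and the target of leptomycin B, stood at 0.13 in the authors' deposited table. The actin exportin XPO6 had a fold of 0.15, and XPOT, which exports tRNA, had 0.01 in the authors' deposited table.

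The importins gave no call in the table of all genes; the 3 called in the table of bound genes, IPO11, TNPO3 and KPNB1, are described with that table. The importin alpha proteins, adaptors that read classical nuclear localisation signals, had a median of 0.01, with 4 of 7 above 0. KPNA2, the adaptor prominent in dividing cells, stood at 0.06 in the authors' deposited table, and the range ran from -0.53 for KPNA7, known from oocytes and early embryos, to 0.19 for KPNA3. KPNA4 and KPNA5 were both at -0.12. In the authors' deposited table KPNA7 had a PPDE of 0 in spite of its fold. The importin beta family, the carriers that pass through the pore, had a median of 0.10 with 9 of 11 above 0. IPO11, an importer of ubiquitin-conjugating enzymes, was highest at 0.50 (PPDE 0.598) in the authors' deposited table, followed by IPO7 at 0.40, an importer of ribosomal proteins and histones, and by IPO4 at 0.35. IPO5 stood at 0.22, TNPO2 at 0.19, IPO13 at 0.02 and IPO8 at -0.03 in the authors' deposited table. KPNB1, the partner of the importin alpha adaptors, stood at 0.10, and TNPO1, the carrier of many RNA-binding proteins, at 0.03 in the authors' deposited table. IPO9, a histone and actin importer, was the lowest of this family at -0.17 and came closest to a fall, with a PPDE of 0.850 in the authors' deposited table.

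Of the 22 nucleoporins 21 had a fold above 0 and none was called in the table of all genes, while NUP155 and NUP205 were called in that of bound genes. The 7 genes listed for the Y-complex, the scaffold of the outer rings, were all above 0 with a median of 0.16. They ran from NUP37 at 0.12 to NUP160 at 0.52 in the authors' deposited table. SEH1L and SEC13, Y-complex subunits with symbols outside the rule, are not in that list and are given further below. NUP160, a scaffold subunit, had a PPDE of 0.890, the closest of the nucleoporins to a call. NUP133 stood at 0.27, NUP85 at 0.22, NUP43 at 0.16 and NUP107 at 0.13 in the authors' deposited table. The 5 genes of the inner ring, which anchors the channel, were all above 0 with a median of 0.29, led by NUP155 at 0.37 (PPDE 0.488) and NUP93 at 0.34 (PPDE 0.0424) in the authors' deposited table. NUP188 stood at 0.29 and NUP205 at 0.25 there. The basket genes NUP153 and NUP50 stood at 0.28 and 0.17 in the authors' deposited table. At the cytoplasmic face NUP88 had 0.23 and NUP214, its partner in RNA export, 0.10 in the authors' deposited table. The channel proteins NUP62, NUP54 and NUP58 had 0.04, 0.14 and 0.14 in the authors' deposited table; the list of channel proteins held NUP58 only under its older symbol, so it is given apart from that list. NUP210, a membrane-spanning pore protein, was the exception at -1.25 with a PPDE of 0.259 in the authors' deposited table, and NUP210L, its paralog, stood at 0.31.

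**Figure D3:**
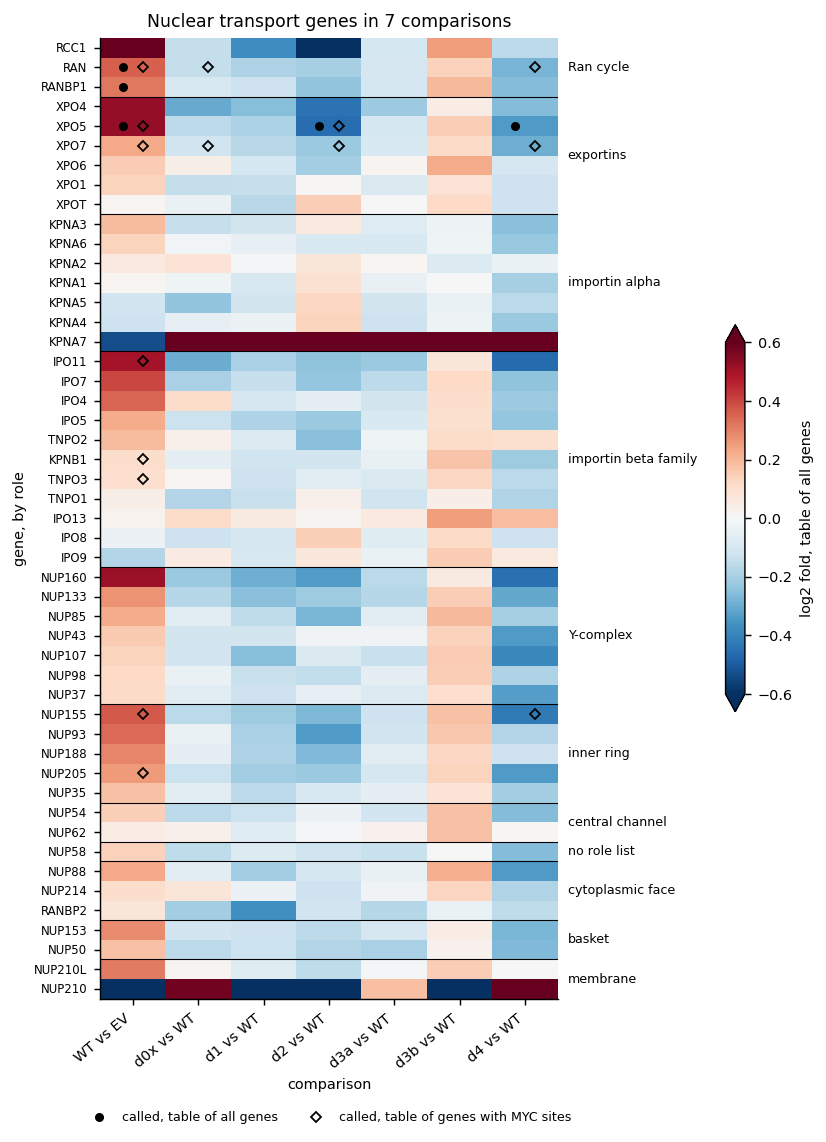
Log2 fold in the table of all genes (colour, limited to 0.6 in either direction, stronger values drawn at the limit) for the 49 nuclear transport genes (rows, by role) in the 7 comparisons (columns); filled circles are calls in that table and open diamonds are calls in the table of genes with MYC sites. WT against EV has 3 calls in the first table and 8 in the second, and the 2 calls of the mutants in the first table are both XPO5.

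The authors' deposited table of genes with a MYC binding site holds its own fold and PPDE for 41 of the genes, and more of them passed there. In WT against EV 8 genes had risen and 0 had fallen (19.5%), beside 8.44% risen and 7.32% fallen of the 9181 genes tested in that table. RAN and XPO5 were called in both tables, and 6 genes only in this one. The 6 were XPO7 (0.27), NUP155 (0.41), NUP205 (0.29), IPO11 (0.53), TNPO3 (0.14) and KPNB1 (0.14) in the authors' deposited table of bound genes. TNPO3 is the carrier of SR splicing proteins, and NUP155 and NUP205 belong to the inner ring. RANBP1 is not on that list, so its call has no counterpart there.

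In WT against EV folds differed little between the tables and PPDE values much. There the fold in the authors' deposited table of bound genes was higher by a median of 0.036 (range 0.02 to 0.06 over the 41 genes), and the PPDE was higher for 39 of 41. TNPO3 is the widest example, with folds of 0.10 and 0.14 and PPDE values of 0.00821 and 0.991 in the authors' deposited table of all genes and of bound genes. In the mutants the shift between the tables was as large as some of the medians: the fold in the table of bound genes differed by a median of 0.069 in d1, -0.081 in d3b and 0.072 in d4, and by -0.039 to 0.033 in d0x, d2 and d3a. Which genes of nuclear transport count as changed therefore depends on the table: 3 were called in at least 1 comparison in the first and 8 in the second, with RAN and XPO5 in both.

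**Figure D4:**
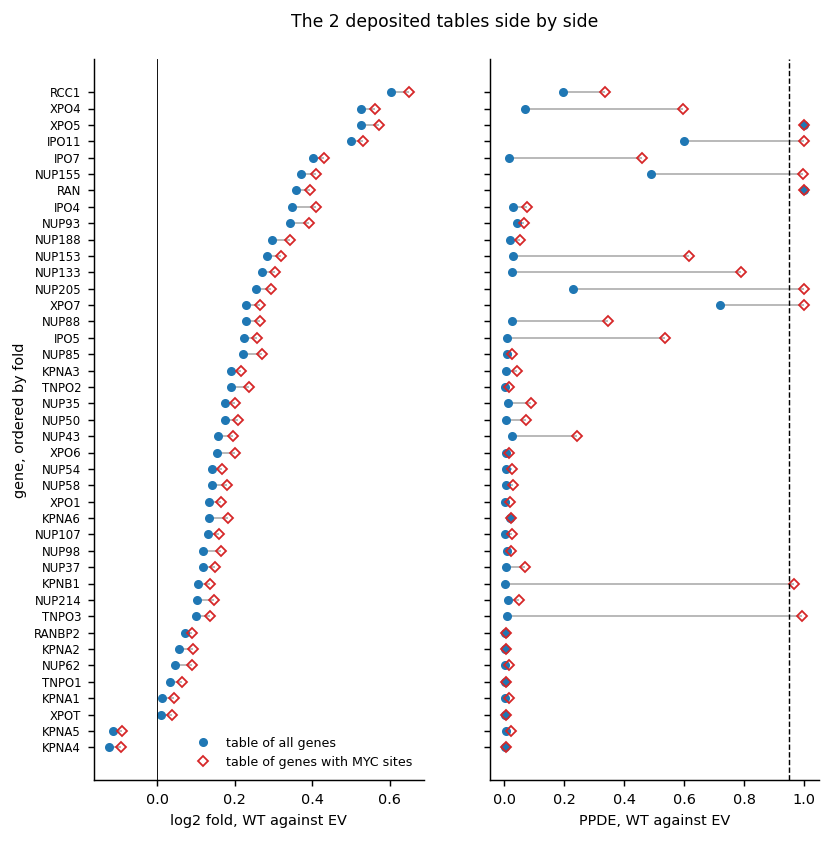
Log2 fold (left, x axis) and PPDE (right, x axis, dashed line at 0.95) of WT against EV for the 41 genes present in both of the authors' tables (rows, ordered by fold), with circles for the table of all genes and diamonds for the table of genes with MYC sites. Folds move by 0.02 to 0.06, whereas PPDE passes the line for 2 genes in the first table and for 8 in the second.

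The mutants were each compared with WT, which asks what the loss of a segment changes relative to full-length MYC. In d2 the genes were mostly lower, with 37 of 49 folds below 0 and 1 gene fallen. The median was -0.12 in the authors' deposited table, beside 0.04 over all tested genes and 0.06 over protein-coding genes. Of all tested genes 0.695% had risen and 0.758% had fallen, against 0 and 2.04% of the 49. Among protein-coding genes 1.41% had risen and 1.49% had fallen, so 1 fallen gene of 49 is near their share. XPO5 was the gene called and fell by 0.46 (27.1% lower) with a PPDE of 1.00 in the authors' deposited table. The lowest value belonged to NUP210, at -1.26 with a PPDE of 0, and the highest to KPNA7, at 1.27 with a PPDE of 0.0318, in the authors' deposited table. RCC1 stood at -0.61 (PPDE 0.0140), RANBP1 at -0.23 and RAN at -0.20 there. The inner ring had the lowest median of the scaffold lists, -0.27 with 5 of 5 below 0. The list of Y-complex genes had -0.15, with 7 of 7 below 0. The importin alpha adaptors went the other way, with 6 of 7 above 0 and a median of 0.09, while KPNA6 stood at -0.09 in the authors' deposited table. XPO1 at 0.01, KPNA2 at 0.07 and TNPO1 at 0.03 lay close to 0, and KPNB1 stood at -0.11 in the authors' deposited table.

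In d4, as in d2, the genes were mostly lower. Of the 49 folds 43 were below 0, the median was -0.21 beside -0.05 over all tested genes and -0.03 over protein-coding genes in the authors' deposited table, and 1 gene had fallen. Of all tested genes 0.251% had risen and 0.860% had fallen, against 0 and 2.04% of the 49. Among protein-coding genes 0.525% had risen and 1.72% had fallen, so 1 fallen gene of 49 is near their share here too. XPO5 was again the gene called and fell by 0.34 (20.9% lower) with a PPDE of 1.00 in the authors' deposited table. RANBP1 came next in PPDE, at -0.26 with 0.932, followed by NUP155 at -0.42 with 0.651, in the authors' deposited table. RAN stood at -0.28 with a PPDE of 0.151 there. The list of Y-complex genes had a median of -0.33 with 7 of 7 below 0, led by NUP160 at -0.45 and NUP107 at -0.39 in the authors' deposited table. The lowest gene was IPO11 at -0.46, and the highest were NUP210 at 1.36 and KPNA7 at 1.03 in the authors' deposited table. The import carriers IPO13, TNPO2 and IPO9 also stood above 0, at 0.18, 0.10 and 0.06 there.

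In the table of bound genes the calls of d2 and d4 were partly other genes. In d2 2 genes had fallen, XPO5 by 0.47 and XPO7 by 0.24, while 2.17% of all genes had risen and 2.70% had fallen in that authors' deposited table. In d4 3 genes had fallen, RAN by 0.21, XPO7 by 0.22 and NUP155 by 0.35, while 1.00% of all genes had risen and 1.64% had fallen in that authors' deposited table. XPO5 in d4 stood at -0.27 with a PPDE of 0.527 there, so its call in the first table was not repeated. The order of the 2 mutants also depended on the table: the median of the 41 genes was -0.160 in d2 and -0.155 in d4 in the authors' deposited table of bound genes, against -0.12 and -0.21 for the 49 in that of all genes.

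In d0x 0 genes were called, beside 0.340% risen and 0.219% fallen of all tested genes. The median was -0.10 beside 0.00 over protein-coding genes, and 37 of 49 folds were below 0 in the authors' deposited table. The lowest was XPO4 at -0.30, close to IPO11 at -0.30, and the highest was KPNA7 at 1.50 with a PPDE of 0 in the authors' deposited table. RAN stood at -0.15, RCC1 at -0.14 and RANBP1 at -0.10 there. In the authors' deposited table of bound genes 2 genes had fallen in d0x, RAN by 0.15 and XPO7 by 0.11, beside 0.991% risen and 1.33% fallen of all genes there. Both differences were small in size.

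In d1 0 genes were called, beside 0.0290% risen and 0.0895% fallen of all tested genes, and 47 of 49 folds were below 0. The median was -0.13 in the authors' deposited table, while the median of protein-coding genes was -0.08 and 65.9% of them were below 0, so lower folds were common outside nuclear transport too. The highest was KPNA7 at 1.55 and the lowest NUP210 at -0.64 in the authors' deposited table. RANBP2 and RCC1 both stood at -0.37 there. XPO5, at -0.19, had the highest PPDE of the 49, 0.433, in the authors' deposited table. In the authors' deposited table of bound genes the median of the 41 genes was -0.066, beside -0.006 over all genes there. No gene was called in that table either, where 0.109% had risen and 0.0981% had fallen.

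In d3a 0 genes were called, beside 0.0131% risen and 0.0288% fallen of all tested genes. The median was -0.09 beside -0.02 over protein-coding genes, and 43 of 49 folds were below 0 in the authors' deposited table. The range ran from IPO11 at -0.22 to KPNA7 at 1.22, and 48 of the 49 folds were under 0.3 in size. RAN, RANBP1 and RCC1 stood at -0.10, -0.11 and -0.11 in the authors' deposited table. No gene was called in the table of bound genes, where 0.0327% had risen and 0.0327% had fallen.

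In d3b 0 genes were called, beside 0.0743% risen and 0.0212% fallen of all tested genes. It was the one mutant with mostly higher folds than WT, 40 of 49, and its median was 0.12 in the authors' deposited table. Protein-coding genes had a median of 0.08 there with 67.8% above 0, and in the authors' deposited table of bound genes the median of the 41 genes was 0.04 beside 0.01 over all. RCC1 stood at 0.25, RANBP1 at 0.19, XPO5 at 0.15 and RAN at 0.14 in the authors' deposited table. The highest was KPNA7 at 0.93 with a PPDE of 0, and the lowest NUP210 at -0.69 with a PPDE of 0. All 11 genes of the importin beta family and all 6 exportins were above 0, with a median of 0.12 for each in the authors' deposited table. The importin alpha adaptors differed there, with 6 of 7 below 0 and a median of -0.03. In the authors' deposited table of bound genes the medians were 0.03 for the importin beta family and 0.04 for the exportins. There 6 of 8 and 5 of 6 were above 0. The importin alpha adaptors had a median of -0.11 in that table, with 6 of 6 below 0. In the table of bound genes 0.0218% had risen and 0.109% had fallen, with no gene of nuclear transport among them.

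XPO5 is the one gene with calls in more than 1 comparison of the table of all genes, where it had risen with MYC. Its fold against WT was -0.16 in d0x, -0.19 in d1, -0.46 in d2, -0.10 in d3a, 0.15 in d3b and -0.34 in d4 in the authors' deposited table. The 2 lowest, d2 and d4, are the calls, and d3b alone was above 0. Differences between one mutant and another were not tested, since the tables compare each mutant with WT only. KPNA7 and NUP210 had the widest ranges of fold among the 49 in the authors' deposited table, from -0.53 to 1.55 and from -1.26 to 1.36, yet no PPDE of theirs exceeded 0.259. The levels of these 2 genes were not analysed here.

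Some of these genes share sequence or position with others, and whether the authors' counting used strand is not given in the sources used here. XPO5 overlaps POLR1C, a subunit of RNA polymerases I and III on the opposite strand, over 348 exon bases, 4.08% of the exon bases of XPO5 in GENCODE, or 100 bases (1.86%) if only transcripts of the basic set are taken. POLR1C rose by 0.69 in WT against EV and fell by 0.66 in d2 with PPDE values of 1.000 and 0.966, and stood at -0.55 in d4 (PPDE 0.823), in the authors' deposited table. RANBP1 overlaps TRMT2A, a tRNA methyltransferase on the opposite strand, over 393 bases, which is 8.50% of its exon bases over all transcripts and 24.1% over those of the basic set. TRMT2A stood at 0.21 (PPDE 0.00810) with WT MYC in the authors' deposited table. RCC1 shares 242 exon bases (6.22%) with SNHG3 on the same strand, a snoRNA host gene that stood at 0.24 in the authors' deposited table. RAN has 7 named pseudogenes with values and RANBP2 has 7 RGPD copies, so how reads were split among them makes those genes uncertain. The part of overlapping and copied sequence in the folds was not tested.

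Further genes of nuclear transport have symbols outside the rule. Of 12 measured pore proteins with other names 1 had risen in WT against EV and 0 had fallen, beside 1.97% and 2.94% of all tested genes. Their median was 0.14, with 8 above 0 and 4 below it, the lowest being NUP62CL at -1.58. RAE1, which binds NUP98 and serves RNA export, rose by 0.27 with a PPDE of 0.988 in the authors' deposited table, and in d4 it fell by 0.35 with a PPDE of 1.00, where 0.860% of all tested genes had fallen. NDC1, a membrane anchor of the pore, stood at 0.51, SEH1L, a Y-complex subunit, at 0.52 and NUPL2 at 0.32, none of them called in the authors' deposited table of all genes. In the authors' deposited table of bound genes these 3 of 10 had risen, by 0.55, 0.55 and 0.36, beside 8.44% of all genes there. Of those 10, 8 were above 0 and 2 below it, the lowest being TPR, a basket protein, at -0.15. RAE1 was called in neither comparison in that authors' deposited table, at 0.32 with a PPDE of 0.920 in WT against EV and at -0.28 with 0.0784 in d4. There NDC1 also fell by 0.43 in d4 and NUPL2 by 0.27 in d0x in the authors' deposited table. In the table of all genes 9 of the 12 pore proteins were below 0 in d2 and 10 in d4. The highest of the 12 in both was SEC13, a further Y-complex subunit, at 0.10 in d2 and 0.09 in d4. The 10 further transport factors gave 0 calls in any comparison in either table. In WT against EV their median was 0.03, with 5 above 0 and 5 below it, the lowest being NUTF2 at -0.14. Among them CSE1L, the exportin that returns importin alpha to the cytoplasm, stood at 0.41 in WT against EV, with 0.0157 as its PPDE, and RANGAP1, the protein that activates GTP hydrolysis by Ran, stood at 0.23 in the authors' deposited table.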

How the data were processed

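The measurements are RNA sequencing of 32 libraries, 4 in each of 8 groups taken from the labels. Per the file headers, the authors' values are log2 posterior fold changes from a Bayesian model and a PPDE, a posterior probability between 0 and 1, with no value for a gene without reads. The deposited score counts the comparisons in which a gene was called; recounting from the PPDE gave the same number for each of the 58317 genes. Per the submitters' processing notes the tools were R 3.3.1, edgeR 3.16.5, DESeq and STAR 2.5.2a, with the build GRCh37. Which program gave the posterior values, how libraries were scaled and the depth per library are not given in the sources used here.

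No model was fitted here. Between 37690 and 38271 genes had values per comparison. Calls and medians were counted in Python 3.11.15 with pandas 2.3.3, a script tested on simulated data, beside the same over all tested genes and over protein-coding genes (GENCODE 29, matched by symbol). Overlaps of exons come from GENCODE and promoters from RefSeq (GRCh38.p14); neither was joined to coordinates on GRCh37. Alternatives were PPDE limits of 0.90 and 0.99, a fold minimum of 0.5, folds centred on a median gene, and the table of bound genes.

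Named were RAN, RCC1, RANBP1, RANBP2, XPO1, KPNB1, KPNA2 and TNPO1, every gene called in any comparison, the 3 highest and 3 lowest nucleoporins and receptors in WT against EV, the highest and lowest gene of each mutant, and up to 4 genes of each further list by PPDE; other genes of the set were named after their values were seen, to show the range of a role. The genes and lists were chosen with earlier results of these data known.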

Additional observations from a re-analysis of the deposited data

How the results depend on the processing

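No paired analysis was possible because the deposited tables hold comparisons and no values per library; leaving out single replicates was not possible for the same reason. Of 112 values recomputed for counts and medians 95 stayed within 1.5 times (counts) or 0.05 (medians) of the value reported, and no median changed sign. Many of the counts could hardly move, so the 95 is no measure of robustness. Centring leaves every PPDE as it is, and a count of 0 cannot rise under a stricter limit or in fewer genes. With the table of bound genes 7 values moved and 14 stayed. In the authors' deposited table of bound genes the genes risen in WT against EV numbered 8, those fallen 2 in d0x, 2 in d2 and 3 in d4, and the medians were -0.066 in d1, 0.039 in d3b and -0.155 in d4. Over those 41 genes in the table of all genes no count or median moved by more than the same limits, in an alternative chosen after seeing the data. With a fold of at least 0.5 required, 1 gene had risen in WT against EV, and 0 had fallen in d2 and 0 in d4. At a PPDE of 0.90 the genes fallen in d4 were 2, with RANBP1 added, and a PPDE of 0.99 moved no count. Centred on the median tested gene, the medians of d1 and d3b were -0.065 and 0.060. Centred on the median protein-coding gene, the medians were 0.231 in WT against EV, -0.055 in d1, -0.179 in d2 and 0.040 in d3b. The cause of these shifts was not tested, except that centring subtracts the median of the other genes by construction. Of 52 values of single genes 13 kept a call, 25 stayed without one, 13 gained one and XPO5 in d4 lost its call in the table of bound genes.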

Other observations

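Genes of mRNA export, which hand messenger RNA to the pore, were looked at beside the nuclear transport genes. Of 21 measured 17 had a fold above 0 in WT against EV, with a median of 0.12 in the authors' deposited table, and one gene, THOC3, had risen. Of all genes tested in that comparison 46.9% had a fold above 0 and 1.97% had risen, and 0.758% had fallen in d2 and 0.860% in d4. This subunit of the THO complex that couples transcription to export rose by 0.42 with a PPDE of 1.00 in WT against EV, fell by 0.49 with a PPDE of 1.00 in d2 and fell by 0.27 with a PPDE of 0.99 in d4 in the authors' deposited table. It had -0.26 with a PPDE of 0.876 in d1. PCID2, a partner of the export factor complex TREX-2, stood at 0.32 with a PPDE of 0.761 in the authors' deposited table of all genes and rose by 0.36 in that of bound genes. It was the 1 gene risen of 14 from this list in the table of bound genes, where 8.44% of all genes had risen. DDX39A, an RNA helicase of export, had the highest fold of the list, 0.44, and a PPDE of 0.00501 in the authors' deposited table.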
